A study of Mus musculus with 6 samples.

Results

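The genes analysed here encode the secreted and membrane-bound metalloproteases that cut the extracellular matrix, together with their inhibitors. They were chosen by name: every row of the count table whose identifier carries the mouse symbol Mmp, Adamts or Adamtsl followed by a number, and Timp1 to Timp4. This gave 51 of the 52636 genes in the table, made up of 23 Mmp, 19 Adamts, 5 Adamtsl and 4 Timp genes. The rule used no measured value, but it was set with earlier results of these data known.

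Lung innate lymphoid cells (ILCs) of mice were sorted by KLRG1 and sequenced as bulk RNA in 6 libraries, 3 of KLRG1-negative and 3 of KLRG1-positive cells. ILCs resemble T helper cells but lack antigen receptors, and KLRG1 is a lectin-like receptor found on activated group 2 ILCs (ILC2). All mice were wild-type C57BL/6 animals with the IL-4-4get allele, a reporter that places green fluorescent protein under the Il4 gene, and all had received 500 ng of recombinant IL-33 into the peritoneum for 4 days before they were killed on day 5. The gate of both groups was lineage-negative and CD90-positive, at a stated purity over 90%, and the labels call only the KLRG1-positive cells ILC2. The labels' protocols name the KLRG1-positive gate KLRG1high. No untreated group is compared here. Whether libraries of a group stand for different mice is not given in the labels, and the p-values reflect the spread among these libraries alone, which may be technical.

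Matrix metalloproteases (MMPs) are zinc enzymes made as inactive precursors, and most need removal of their propeptide before they act. The ADAMTS enzymes carry thrombospondin repeats that hold them in the matrix, and cut proteoglycans, procollagen or microfibril proteins. ADAMTSL proteins share those repeats but have no protease domain. The 4 TIMPs bind the active site of these enzymes and block them. In lung, fibroblasts are a known source of many of them, whereas Mmp8, Mmp9 and Mmp25 are known from neutrophils and Mmp12 from macrophages.

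Sequences of 4 promoters are given first, because each pair of related genes had its higher means in different sorts, as given below. Mmp10 and Mmp3 are close paralogs from 1 gene cluster on chromosome 9. Mmp25 and Mmp14 are both membrane-anchored enzymes outside that cluster. Each sequence is the 250 bases before the RefSeq start, read 5′ to 3′ on the gene's strand from the GRCm38.p6 table of RefSeq promoters. The positions are chr9:7502092-7502341 (plus strand) for Mmp10, chr9:7445572-7445821 (plus strand) for Mmp3, chr17:23645270-23645519 (minus strand) for Mmp25 and chr14:54431348-54431597 (plus strand) for Mmp14. Capitals mark matches, on either strand, to 3 motifs. The AP-1 site was searched as TGANTCA. The TATA box was searched as TATAAA. The GC box was searched as GGGCGG, and none of the motifs contains another.
Mmp10: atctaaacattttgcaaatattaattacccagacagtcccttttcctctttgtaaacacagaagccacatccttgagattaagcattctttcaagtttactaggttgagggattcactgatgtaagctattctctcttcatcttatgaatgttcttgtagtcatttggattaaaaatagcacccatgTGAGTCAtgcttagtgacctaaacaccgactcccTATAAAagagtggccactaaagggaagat
Mmp3: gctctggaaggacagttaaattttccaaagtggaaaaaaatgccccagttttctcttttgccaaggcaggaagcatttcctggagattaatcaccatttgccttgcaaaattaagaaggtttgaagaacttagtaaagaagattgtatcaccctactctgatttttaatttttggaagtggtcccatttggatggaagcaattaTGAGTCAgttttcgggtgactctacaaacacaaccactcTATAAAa
Mmp25: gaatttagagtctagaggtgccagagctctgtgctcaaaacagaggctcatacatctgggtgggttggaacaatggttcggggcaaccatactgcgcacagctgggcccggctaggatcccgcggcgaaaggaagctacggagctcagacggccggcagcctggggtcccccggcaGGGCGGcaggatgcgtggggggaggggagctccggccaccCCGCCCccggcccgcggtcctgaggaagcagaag
Mmp14: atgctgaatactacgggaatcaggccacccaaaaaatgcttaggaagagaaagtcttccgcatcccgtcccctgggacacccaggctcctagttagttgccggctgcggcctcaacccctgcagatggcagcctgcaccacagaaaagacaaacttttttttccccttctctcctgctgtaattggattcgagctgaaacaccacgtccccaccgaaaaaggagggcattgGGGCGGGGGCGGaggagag
The Mmp10 sequence holds 1 AP-1 match, whose first base lies 63 bases before the start, and 1 TATA match 29 bases before it. The Mmp3 sequence holds the same letters at 46 and 7 bases before its annotated start. Mmp25 and Mmp14 have no AP-1 or TATA match in these windows. Each has 2 GC box matches, at 74 and 34 bases before the start of Mmp25 and at 19 and 13 bases before that of Mmp14.

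Both sorts were checked against defining markers first, because the members are known products of other cells. Assigned counts ran from 17323004 to 23946073 per library, so that 1 CPM (a count scaled to a common library total with TMM factors) stood for 17.8 to 25.4 reads. Klrg1 ranged over 1327 to 1786 CPM in KLRG1-positive and 13.1 to 193 CPM in KLRG1-negative libraries. The 8 ILC2 markers summed to 6817 to 8713 CPM in the KLRG1-positive libraries and to 1358 to 3402 CPM in the KLRG1-negative ones. The 6 fibroblast markers (Col1a1, Col1a2, Col3a1, Dcn, Lum and Pdgfra) summed to 3849 to 10773 CPM in the KLRG1-negative and to 4.66 to 26.8 CPM in the KLRG1-positive libraries. In the KLRG1-positive libraries Lum had 0 counts in libraries 1 and 2 and Pdgfra had 0 in libraries 2 and 3. The 3 mesothelial markers ran from 88.1 to 740.2 against 0.400 to 7.09 CPM, and T cell and B cell markers were also more abundant in the KLRG1-negative libraries, by 889 to 3529 and 526 to 4192 CPM against 305 to 369 and 121 to 350.4 CPM. The lineage-negative KLRG1-negative gate therefore held transcripts that define fibroblasts and other cells. KLRG1-positive libraries also held markers of other cells. Their sums overlapped those of KLRG1-negative libraries, at 95.7 to 219 against 109.8 to 371 CPM (endothelial) and 8.71 to 379.6 against 63.3 to 435 CPM (epithelial). Single markers weighed heavily in the KLRG1-positive sums. Most of the endothelial sum was Pecam1, and the epithelial Sftpc stood at 329.8, 0.374 and 0.400 CPM but Epcam at 0.338, 8.12 and 9.01 CPM. Among T cell markers Cd3g stood at 148, 313 and 249 CPM but Cd3d at 19.4, 4.43 and 5.15 CPM. Macrophage sums were 41.4 to 279 against 49.9 to 348 CPM. Mast cell and basophil sums, mostly Cpa3, were higher, at 32.3 to 108 against 13.3 to 30.4 CPM, although Mcpt8 and Ms4a2 had lower means. In bulk libraries, fewer cells of a type and less RNA per cell cannot be told apart. The part of these other cells in the member differences below was not tested, beyond the marker values given beside them.

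A set of 9 members reached 1 CPM in every KLRG1-positive library: Adamts10, Mmp25, Mmp9, Timp2, Adamts6, Mmp10, Adamtsl4, Mmp8 and Mmp11. These are the members detected in the KLRG1-positive sort by that limit, 9 of 51, where 47.8% of all protein-coding genes reached it. In the KLRG1-negative libraries 19 of 51 members reached it, against 50.5% of protein-coding genes, and 6 members did so in both sorts. Another 8 members had 0 counts in every library: Adamts16, Adamts18, Mmp13, Mmp1a, Mmp1b, Mmp20, Mmp21 and Mmp7. Among these are the interstitial collagenases Mmp13 and Mmp1a and the epithelial matrilysin Mmp7. A count of 0 over the KLRG1-positive libraries allows up to 3 counts, or 0.0508 CPM. A further 8 members had 0 counts in the KLRG1-positive libraries only. At a limit of 0.5 CPM the detected number was 11, with Mmp14 and Mmp15 added.

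**Figure D1:**
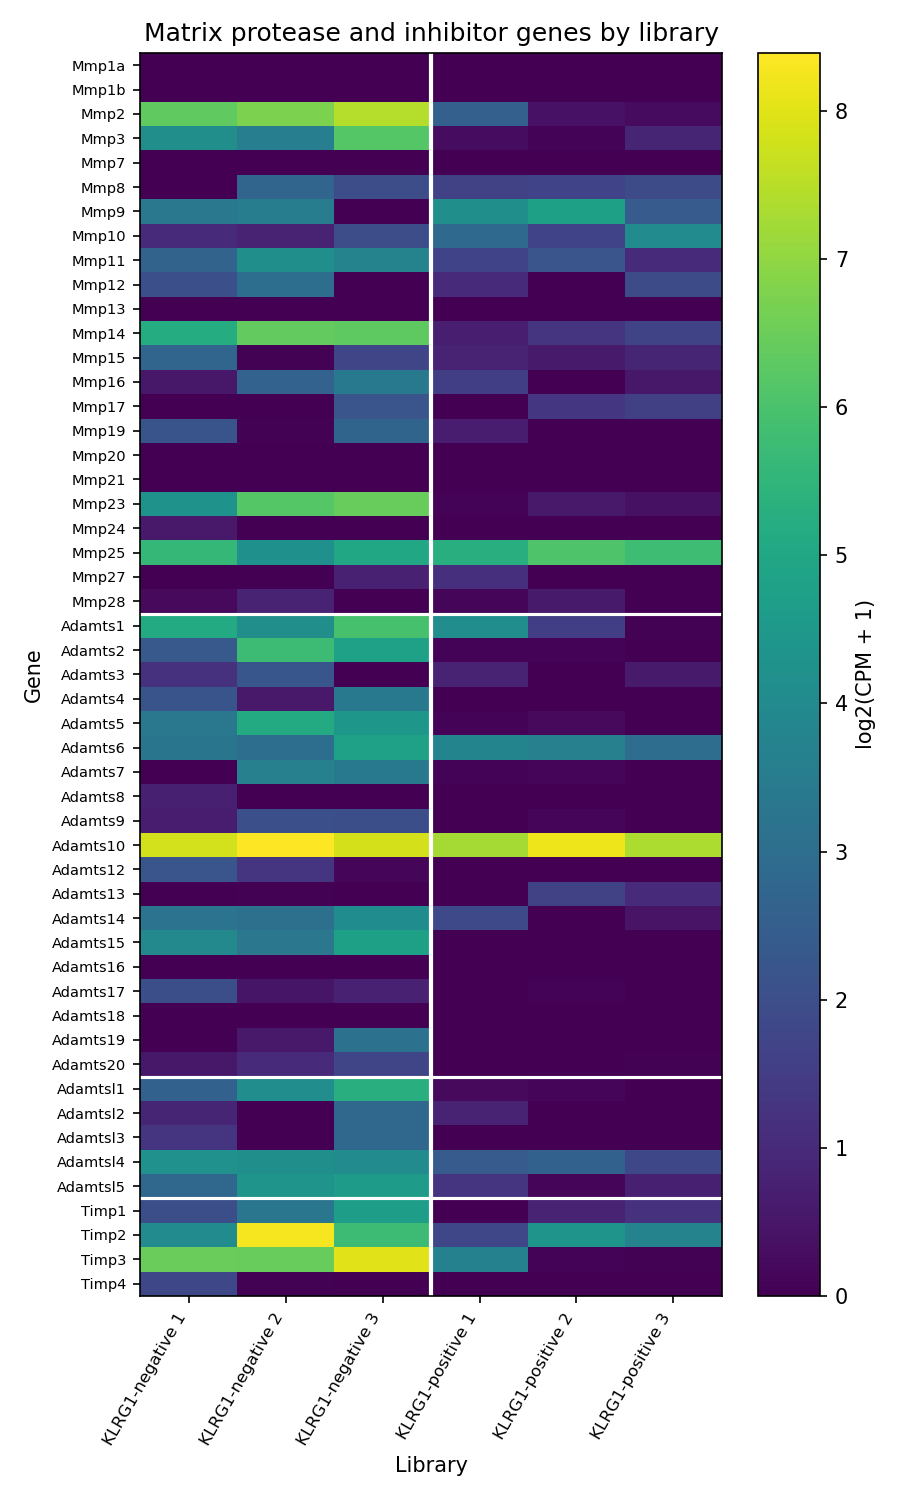
Level of each of the 51 members (rows, grouped as Mmp, Adamts, Adamtsl and Timp genes) in each of the 6 libraries (columns), as log2(CPM + 1). Adamts10 and Mmp25 are bright in all 6 columns, whereas most other bright cells lie in the 3 KLRG1-negative columns.

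Adamts10 had the highest mean of all members in both sorts. ADAMTS10 is a secreted protein of fibrillin microfibrils, and mutations in it cause Weill-Marchesani syndrome. It stood at 154, 292 and 163 CPM in KLRG1-positive and at 224, 335 and 231 CPM in KLRG1-negative libraries (ENSMUSG00000024299, GRCm38 chromosome 17, 33524204 to 33553782). The groups overlapped, with means of 203 ± 77.1 and 263 ± 62.2 CPM (SD, n = 3 each). The log2 fold change, KLRG1-positive against KLRG1-negative, was -0.38 ± 0.32 (SE), with an edgeR adjusted p of 0.676. Per length, it averaged 113 ± 43.9 TPM (counts per length, scaled to the same total in each library) in KLRG1-positive cells, above 92.5% of protein-coding genes. It made up 45.8, 56.6 and 45.0% of the summed TPM of all members in the KLRG1-positive libraries and 27.5, 21.1 and 13.1% in the KLRG1-negative ones. Per 1000 CPM of fibroblast markers Adamts10 stood at 5763, 15441 and 34933 CPM in KLRG1-positive and 58.2, 50.5 and 21.4 in KLRG1-negative libraries. The fibroblast sum behind the KLRG1-positive ratios was only 4.66 to 26.8 CPM. Per 1000 CPM of macrophage markers the values overlapped, at 554, 1349 and 3931 against 645, 2160.1 and 4628 CPM. Those for endothelial markers also overlapped, at 705, 1931 and 1702 against 604, 3050.3 and 1162 CPM. Pecam1 gave most of that endothelial sum in both sorts. It stood at 146, 143 and 95.4 of 219, 151 and 95.7 CPM in KLRG1-positive libraries. In KLRG1-negative libraries it stood at 247, 97.5 and 169 of 371, 109.8 and 199 CPM. Kdr stood at 39.4, 5.82 and 0.0444 against 79.7, 6.82 and 22.1 CPM. Vwf stood at 23.5, 0 and 0.178 against 31.4, 5.24 and 6.49 CPM. The part of other cells in the level of Adamts10 was not tested. The next gene on the same strand, the leukocyte myosin Myo1f, starts 1936 bases after the end of Adamts10 and stood at 648, 697 and 561 CPM in KLRG1-positive and 663, 582 and 429 CPM in KLRG1-negative cells. The ratio of Adamts10 to Myo1f varied from 0.238 to 0.575 over the 6 libraries. Whether reads cross from 1 gene into the other was not tested.

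Mmp25 was the second most abundant member per length in KLRG1-positive cells. It encodes MT6-MMP, or leukolysin, which is held at the cell surface by a glycolipid anchor. It stood at 38.5, 66.2 and 53.6 CPM in KLRG1-positive and at 47.0, 17.6 and 31.2 CPM in KLRG1-negative libraries (ENSMUSG00000023903, chromosome 17, 23629458 to 23645269). The KLRG1-positive mean was the higher, 52.8 ± 13.8 against 31.9 ± 14.7 CPM, but KLRG1-negative library 1 lay above KLRG1-positive library 1. The difference did not pass the test (log2 fold change 0.72 ± 0.41, adjusted p = 0.493). Its level per length in the KLRG1-positive libraries was 47.1 ± 11.8 TPM, above 83.1% of protein-coding genes, and it gave 18.5, 20.7 and 24.0% of member TPM there.

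The 5 neutrophil markers (S100a8, S100a9, Csf3r, Cxcr2 and Retnlg) bear on Mmp25, Mmp9 and Mmp8, and summed to 29.9, 40.0 and 7.41 CPM in KLRG1-positive and 41.1, 84.1 and 43.1 CPM in KLRG1-negative libraries. None was at 0 except Cxcr2 in KLRG1-positive library 3. Per 1000 CPM of neutrophil markers Mmp25 stood at 1288, 1654 and 7228 CPM in KLRG1-positive and at 1142, 209.7 and 725 CPM in KLRG1-negative libraries. The part of neutrophil RNA in the level of Mmp25 was not tested.

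Mmp9, or gelatinase B, stood at 17.3, 26.4 and 4.35 CPM in KLRG1-positive and at 9.18, 10.5 and 0 CPM in KLRG1-negative libraries (ENSMUSG00000017737, chromosome 2, 164940780 to 164955850). In both sorts the library numbered 3 was the lowest, and the groups overlapped. The log2 fold change was 1.29 ± 1.55 (adjusted p = 0.797). Per 1000 CPM of neutrophil markers, Mmp9 stood at a similar 580.0, 661 and 587 CPM in the KLRG1-positive libraries. The KLRG1-negative ratios were 223, 125 and 0. The part of neutrophil RNA in its level was not tested further.

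Mmp8, the neutrophil collagenase, was low in both sorts, at 2.08, 2.19 and 2.89 CPM in KLRG1-positive and 0, 5.60 and 2.93 CPM in KLRG1-negative libraries. Its log2 fold change of -0.25 ± 1.45 (adjusted p = 0.972) turned to 0.85 without KLRG1-negative library 2 and to 0.77 with the replicate number as a block. No direction can be read from it.

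**Figure D2:**
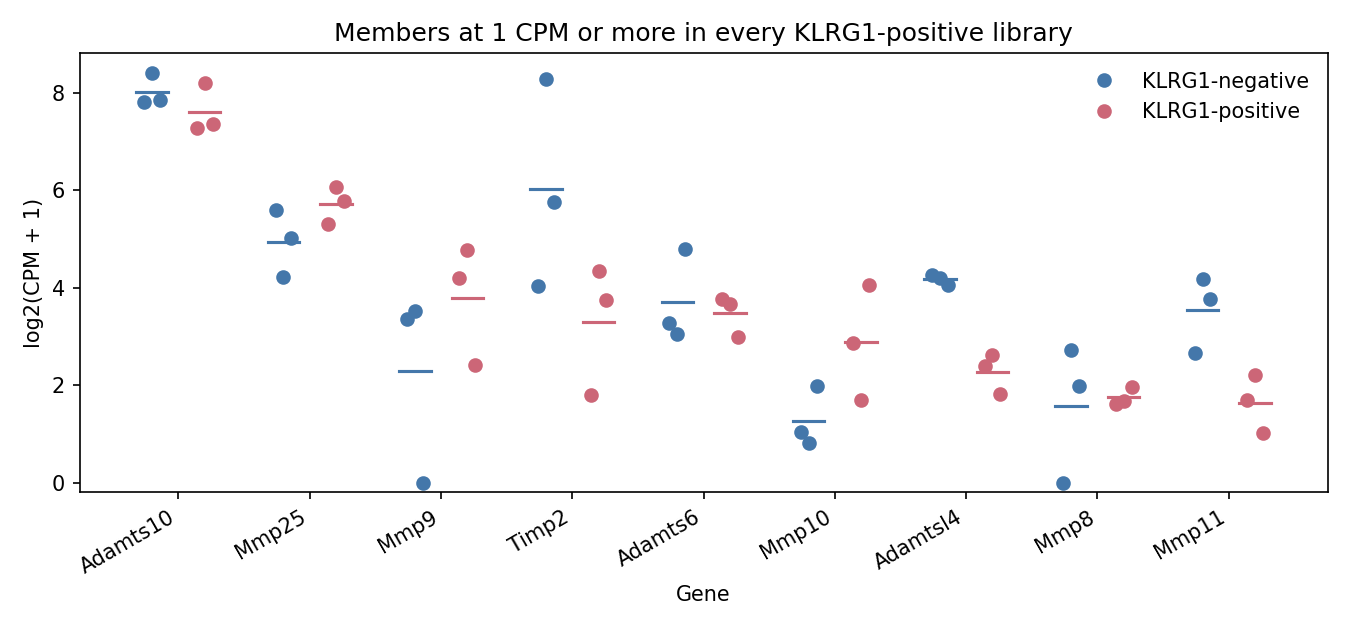
The 9 members at 1 CPM or more in every KLRG1-positive library, as log2(CPM + 1), with 1 point per library and a bar at the group mean of these log values. Mmp10, Mmp25, Mmp9 and Mmp8 have the higher bar in KLRG1-positive libraries but overlapping points, and Adamtsl4 and Mmp11 lie lower there in all 3 libraries.

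Mmp10 had the largest positive log2 fold change of the 31 members tested. It encodes stromelysin 2, a secreted enzyme of broad substrate range that can also activate other pro-MMPs. It stood at 6.31, 2.24 and 15.7 CPM in KLRG1-positive and at 1.06, 0.749 and 2.93 CPM in KLRG1-negative libraries (ENSMUSG00000047562, chromosome 9, 7502352 to 7510240). The means were 8.09 ± 6.91 and 1.58 ± 1.18 CPM, a 5.12-fold difference. The groups overlapped, since KLRG1-positive library 2 lay below KLRG1-negative library 3. Within each replicate number the KLRG1-positive library was the higher, by 2.58, 1.58 and 2.42 on the log2 scale. The fitted log2 fold change was 2.35 ± 0.93. It was 1.59 without KLRG1-positive library 3 and 3.17 without KLRG1-negative library 3. Its unadjusted p was 0.0432, and it did not pass after adjustment (edgeR adjusted p = 0.296; 0.157 with the replicate block and 0.0693 by DESeq2). No member passed as higher by either tool, where edgeR called 0.125% and DESeq2 2.00% of all genes tested higher. At an unadjusted p under 0.05, Mmp10 was the only member higher in the edgeR test, where 4.19% of all genes were. Per 1000 CPM of fibroblast markers Mmp10 stood at 235, 119 and 3371 CPM in KLRG1-positive and at 0.275, 0.113 and 0.272 in KLRG1-negative libraries. The fibroblast sum behind the KLRG1-positive ratios was only 4.66 to 26.8 CPM. Per 1000 CPM of macrophage markers the values overlapped, at 22.6, 10.4 and 379 against 3.04, 4.83 and 58.8 CPM. Those for neutrophil markers also overlapped, at 211, 56.1 and 2119.8 against 25.7, 8.91 and 68.1 CPM. The part of fibroblasts or these other cells in the level of Mmp10 was not tested.

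Mmp3, or stromelysin 1, had its higher level in the other sort. Its end lies 46376 bases before the start of Mmp10, with Mmp1a between them (ENSMUSG00000043613, chromosome 9, 7445822 to 7455975). It stood at 16.7, 11 and 72.2 CPM in KLRG1-negative and at 0.225, 0.0534 and 0.843 CPM in KLRG1-positive libraries, with no overlap. The KLRG1-negative mean was 89.0-fold the KLRG1-positive one (33.3 ± 33.8 against 0.374 ± 0.416 CPM). The log2 fold change of -6.42 ± 1.27 missed the threshold (adjusted p = 0.0704). It passed with the replicate block (0.0422) and by DESeq2 (3.5e-08). The log2 fold change was -5.16 without KLRG1-negative library 3 and -7.69 without KLRG1-positive library 3.

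The cluster on chromosome 9 holds 10 members within 427 kb, in the order Mmp13, Mmp12, Mmp1b, Mmp3, Mmp1a, Mmp10, Mmp8, Mmp27, Mmp20 and Mmp7. Of these, 5 had 0 counts in every library, and Mmp3, Mmp8 and Mmp10 are described above. The macrophage elastase Mmp12 stood at 1.01, 0 and 2.89 CPM in KLRG1-positive and 3.17, 7.10 and 0 CPM in KLRG1-negative libraries. Its exons overlap those of Mmp1b on the other strand, so its counts are uncertain in a table made without strand. The 6 macrophage markers summed to 279, 216 and 41.4 against 348, 155 and 49.9 CPM. Promoter windows were found for all 10 genes of the cluster and 26 other members, 36 of 51 in all. The AP-1 letters occurred in 8 of the 10 and in 0 of the 26, and in 6.75% of all 32851 windows. A member was counted if any of its windows matched (39 windows for 36 members), whereas the shares of all windows are per window. The TATA box occurred in 7 of 10 and 3 of 26 (12.4% of all windows), and the GC box in 0 of 10 and 20 of 26 (32.7%). Of the 8 cluster genes with an AP-1 match, 5 had 0 counts in every library. A match of letters is a description of the sequence and shows no binding.

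**Figure D3:**
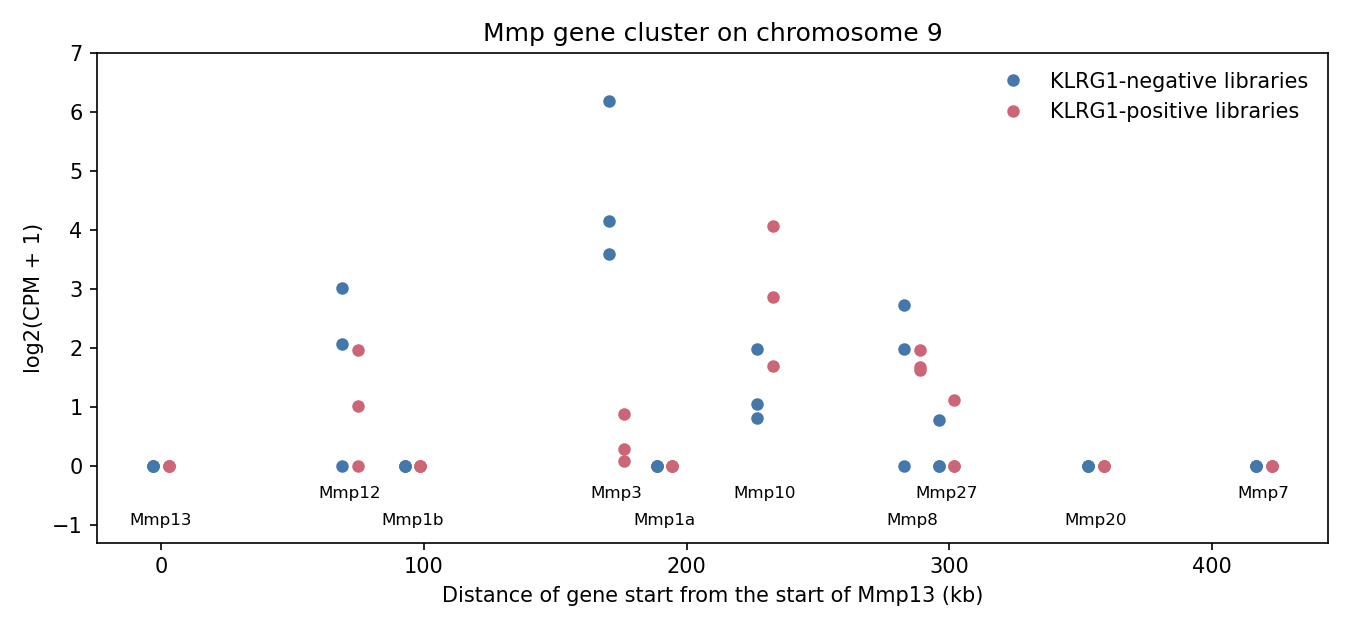
Level of the 10 cluster members in each library, as log2(CPM + 1), against the distance of the gene's start from that of Mmp13 in kb. Mmp3 is high in KLRG1-negative libraries and Mmp10 has the highest point in a KLRG1-positive one, while 5 of the 10 genes lie at 0 in all 6 libraries.

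Another 3 members were detected in KLRG1-positive cells at low levels. Adamts6, a close relative of Adamts10, stood at 12.7, 11.7 and 6.97 CPM in KLRG1-positive and at 8.68, 7.25 and 26.7 CPM in KLRG1-negative libraries (ENSMUSG00000046169, chromosome 13, 104287835 to 104496695). Per length its level in KLRG1-positive cells was 4.11 ± 1.40 TPM, far below that of Adamts10. Its log2 fold change of -0.44 ± 0.61 (adjusted p = 0.827) turned to 0.40 without KLRG1-negative library 3, the highest of the 6. Adamtsl4, a fibrillin-binding protein of the lens zonule, stood at 4.28, 5.13 and 2.53 CPM in KLRG1-positive and at 18.1, 17.3 and 15.6 CPM in KLRG1-negative libraries (ENSMUSG00000015850, chromosome 3, 95676201 to 95687917). The groups did not overlap, and the KLRG1-negative mean was 4.27-fold the KLRG1-positive one (17.0 ± 1.31 against 3.98 ± 1.32 CPM). Its log2 fold change of -2.09 ± 0.42 missed the edgeR threshold (adjusted p = 0.0695) and passed by DESeq2 (9.56e-06). Mmp11, or stromelysin 3, stood at 2.25, 3.63 and 1.02 CPM in KLRG1-positive and at 5.34, 17.2 and 12.6 CPM in KLRG1-negative libraries, also without overlap (log2 fold change -2.35 ± 0.70, adjusted p = 0.167; DESeq2 0.0106). Its exons overlap those of Chchd10, and without strand the reads of the overlap cannot be told apart. It fell under the detection limit in 1 library when counts were scaled by library size only.

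A set of 5 members was lower in KLRG1-positive cells by the edgeR test: the membrane proteases Mmp14 and Mmp23 and the secreted Adamts2, Adamts5 and Adamts15. They were 5 of the 31 members tested, where 1.21% of all 15197 tested genes were called lower. The other 20 members did not pass the filter on low counts. That filter keeps a gene by its level in the higher group, so the tested members were open to large differences. With the replicate number as a block, 3 members were lower (Mmp14, Mmp23 and Mmp3; 0.349% of all genes), and DESeq2 called 22 of 41 lower (9.15% of all genes). Without the filter, 7 of 43 members were lower and 0 higher, against 1.05 and 0.138% of all genes. Among the 31 members, 28 log2 fold changes were negative and 3 were positive (Mmp10, Mmp25 and Mmp9). Their median was -3.39, where the median over all tested genes was -0.05. It was -2.14 for Mmp, -4.59 for Adamts, -3.83 for Adamtsl and -4.13 for Timp genes. Every KLRG1-positive library was below every KLRG1-negative library for 17 of 31 members, as it was for 15.2% of all tested genes, and the reverse held for 0 members against 9.46%.

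The calls did not all hold when single libraries were left out. Without KLRG1-negative library 1 the edgeR test called 3 members lower (Mmp14, Mmp23 and Adamts2), and without KLRG1-positive library 1 it called 5 (Mmp14, Mmp23, Adamts15, Mmp2 and Timp3). Without KLRG1-negative library 2 or 3, or KLRG1-positive library 2 or 3, it called 0, while 16, 14, 18 and 17 members were lower at an unadjusted p under 0.05. Calls over all genes fell likewise, from 184 lower to 4, 0, 0 and 1 in those 4 fits, with 1664, 1653, 1507 and 1344 lower at an unadjusted p under 0.05. In those 4 fits the adjusted p of the 5 members ran from 0.0912 to 0.179 and all 5 log2 fold changes stayed negative.

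Mmp14, or MT1-MMP, is a transmembrane collagenase that also activates pro-MMP2 at the cell surface. It stood at 35.4, 82.6 and 78.9 CPM in KLRG1-negative and at 0.619, 1.44 and 2.26 CPM in KLRG1-positive libraries (ENSMUSG00000000957, chromosome 14, 54431612 to 54445364). The means were 65.6 ± 26.2 and 1.44 ± 0.822 CPM, a 45.5-fold difference, with a log2 fold change of -5.49 ± 0.65 (adjusted p = 0.0295). Mmp23, a membrane MMP with a toxin-like domain that blocks potassium channels, stood at 18.7, 71.2 and 85.4 CPM in KLRG1-negative libraries (ENSMUSG00000029061, chromosome 4, 155650655 to 155653384). In the KLRG1-positive libraries it did not exceed 0.481 CPM, and the KLRG1-negative mean was 207-fold higher (log2 fold change -7.65 ± 0.97, adjusted p = 0.0364). Per 1000 CPM of fibroblast markers, Mmp14 stood at 9.21, 12.4 and 7.32 CPM in KLRG1-negative and at 23.1, 76.3 and 486 CPM in KLRG1-positive libraries. For Mmp23 these values were 4.86, 10.7 and 7.93 against 2.10, 25.4 and 66.7. For both genes this ratio varied less among the KLRG1-negative than among the KLRG1-positive libraries, where few counts stand behind it.

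The 3 ADAMTS genes called lower were close to absent from KLRG1-positive cells. Adamts2, a procollagen N-proteinase, stood at 4.12, 52.4 and 27.2 CPM in KLRG1-negative libraries and had only 2 counts over the 3 KLRG1-positive ones (ENSMUSG00000036545, chromosome 11, 50602084 to 50807573). The ratio of summed counts per depth was 906 with a 95% counting interval of 250.5 to 7487, and the adjusted p was 0.0448. Adamts5, an aggrecanase and versicanase, stood at 9.23, 34.0 and 20.8 CPM against at most 0.160 CPM, a 295-fold difference (ENSMUSG00000022894, chromosome 16, 85858170 to 85901125; log2 fold change -8.14 ± 1.12, adjusted p = 0.0410). Adamts15, from the same proteoglycan-cutting branch, stood at 14.4, 9.07 and 26.3 CPM and had 0 counts in every KLRG1-positive library (ENSMUSG00000033453, chromosome 9, 30899155 to 30922452). Taking 3 counts over those libraries as the floor, it was at least 326-fold lower (adjusted p = 0.0427). The log2 fold change of Adamts5 was -7.49 without KLRG1-negative library 2, and -9.39 and -7.42 without KLRG1-positive library 2 or 3. With the replicate block these 3 genes missed the threshold, at 0.0685, 0.0680 and 0.109.

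**Figure D4:**
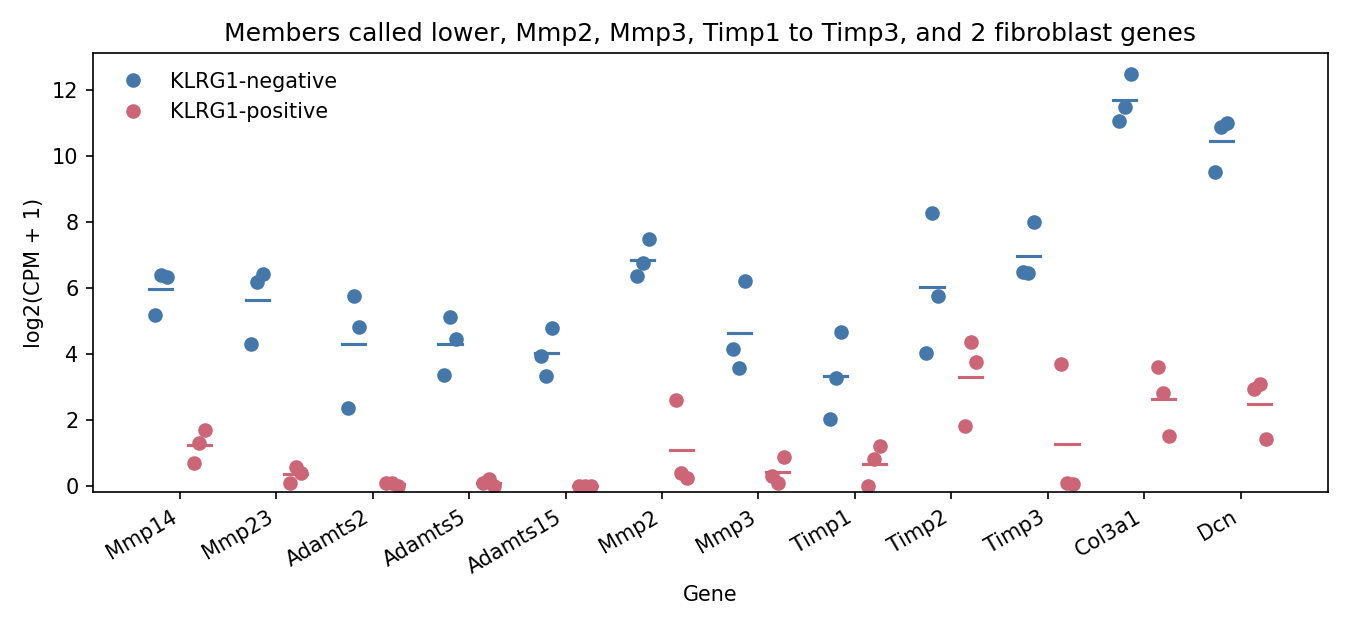
Level per library, as log2(CPM + 1), of the 5 members called lower in KLRG1-positive cells, of Mmp2, Mmp3 and Timp1 to Timp3, and of the fibroblast genes Col3a1 and Dcn, with a bar at the group mean. All genes drawn except Timp2 have non-overlapping groups, and single KLRG1-positive points of Mmp2 and Timp3 stand above the other 2.

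Mmp2, or gelatinase A, had the largest mean of any MMP in the KLRG1-negative libraries, at 80.7, 106 and 176 CPM (ENSMUSG00000031740, chromosome 8, 92827291 to 92853420). In KLRG1-positive libraries it stood at 5.01 CPM in library 1 but at 0.320 and 0.178 CPM in libraries 2 and 3. The means differed 65.8-fold, and the log2 fold change of -6.05 ± 1.36 missed the threshold (adjusted p = 0.0909; DESeq2 2.36e-06). It was -8.90 without KLRG1-positive library 1, where Mmp2 passed (adjusted p = 0.0203), and -5.36 without KLRG1-positive library 3. KLRG1-positive library 1 was also the highest of its group in Timp3, Adamts1 and Adamts14, and in summed fibroblast, endothelial and epithelial markers. The same held for mural, mesothelial, macrophage, mast cell and basophil, and NK cell and ILC1 sums, but not for neutrophil, T cell, B cell or ILC2 sums. Single markers differed. In KLRG1-positive libraries 1, 2 and 3 the endothelial marker Kdr stood at 39.4, 5.82 and 0.0444 CPM, but Pecam1 at 146, 143 and 95.4 CPM. The epithelial marker Sftpc stood at 329.8, 0.374 and 0.400 CPM there, but Epcam at 0.338, 8.12 and 9.01 CPM. The part of those cells in the high values of that library was not tested.

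The other members with a mean of at least 10 CPM also had their higher mean in the KLRG1-negative libraries, and none passed the edgeR test. Adamts1, a versican-cutting enzyme, stood at 34.2, 16.9 and 61.2 CPM in KLRG1-negative and at 16.5, 1.92 and 0.0444 CPM in KLRG1-positive ones, and did not pass (log2 fold change -2.61 ± 1.54, adjusted p = 0.508; -5.25 without KLRG1-positive library 1 and -1.87 without KLRG1-positive library 3). Adamts14, like Adamts2 a procollagen N-proteinase, averaged 10.5 ± 4.66 against 1.00 ± 1.44 CPM (-3.39 ± 1.48, adjusted p = 0.349; -5.78 without KLRG1-positive library 1). Adamtsl1 stood at 5.06, 16.3 and 38.4 CPM in KLRG1-negative libraries and at no more than 0.169 CPM in the others (adjusted p = 0.0543; DESeq2 2.64e-10). Adamtsl5 averaged 16.4 ± 9.27 CPM in KLRG1-negative libraries against 0.746 CPM in the other sort (adjusted p = 0.0986; DESeq2 3.84e-05). The 20 members not named by these rules that had counts reached at most 11.5 CPM in any library and 2.89 CPM in a KLRG1-positive one.

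The 4 TIMP genes summed to 14.4, 20.2 and 13.9 CPM in KLRG1-positive libraries against 109, 405 and 333 CPM, and none of the 3 tested passed. Timp2 was the only TIMP detected in KLRG1-positive cells. It binds both Mmp2 and Mmp14, and stood at 2.48, 19.4 and 12.5 CPM in KLRG1-positive and at 15.4, 309 and 53.3 CPM in KLRG1-negative libraries (ENSMUSG00000017466, chromosome 11, 118301069 to 118355740). KLRG1-negative library 2 was far above the rest, and its library 1 lay below KLRG1-positive library 2. The log2 fold change was -3.46 ± 1.27 (adjusted p = 0.261; DESeq2 0.0175), and within replicate numbers the differences were -2.63, -3.99 and -2.09. It was -1.45 without KLRG1-negative library 2 and -4.05 without KLRG1-positive library 2. Per 1000 CPM of fibroblast markers Timp2 stood at 92.4, 1025 and 2686 CPM in KLRG1-positive and at 3.99, 46.6 and 4.95 CPM in KLRG1-negative libraries. The fibroblast sum behind the KLRG1-positive ratios was only 4.66 to 26.8 CPM. Per 1000 CPM of macrophage markers the values overlapped, at 8.88, 89.6 and 302 against 44.2, 1993 and 1068 CPM. They also overlapped for neutrophil markers (82.9, 485 and 1689 against 373, 3677 and 1238) and endothelial markers (11.3, 128 and 131 against 41.4, 2814 and 268). Most of the endothelial sum was Pecam1, as given for Adamts10. The part of fibroblasts or these other cells in the level of Timp2 was not tested.

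Timp3, which binds the matrix and also inhibits ADAMTS enzymes, stood at 88.2, 86.7 and 255 CPM in KLRG1-negative libraries, against 11.9, 0.0534 and 0.0444 CPM in KLRG1-positive ones (log2 fold change -5.17 ± 1.93, adjusted p = 0.269; DESeq2 0.0145). Of its KLRG1-positive signal, nearly all came from library 1, without which the log2 fold change was -11.35 and passed (adjusted p = 0.0222). With 1 other library left out it was as small as -4.42. Timp1, the inducible soluble inhibitor, stood at 3.06, 8.71 and 24.5 against 0, 0.748 and 1.29 CPM (-4.13 ± 1.46, adjusted p = 0.239; DESeq2 0.0118; -3.09 without KLRG1-negative library 3). Timp4 was not tested: it had 47 counts in KLRG1-negative and 0 in KLRG1-positive libraries, which is at least 17.0-fold lower. Timp1, Timp3 and Timp4 each lie inside a Syn gene on the other strand, and the counts were made without strand.

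**Figure D5:**
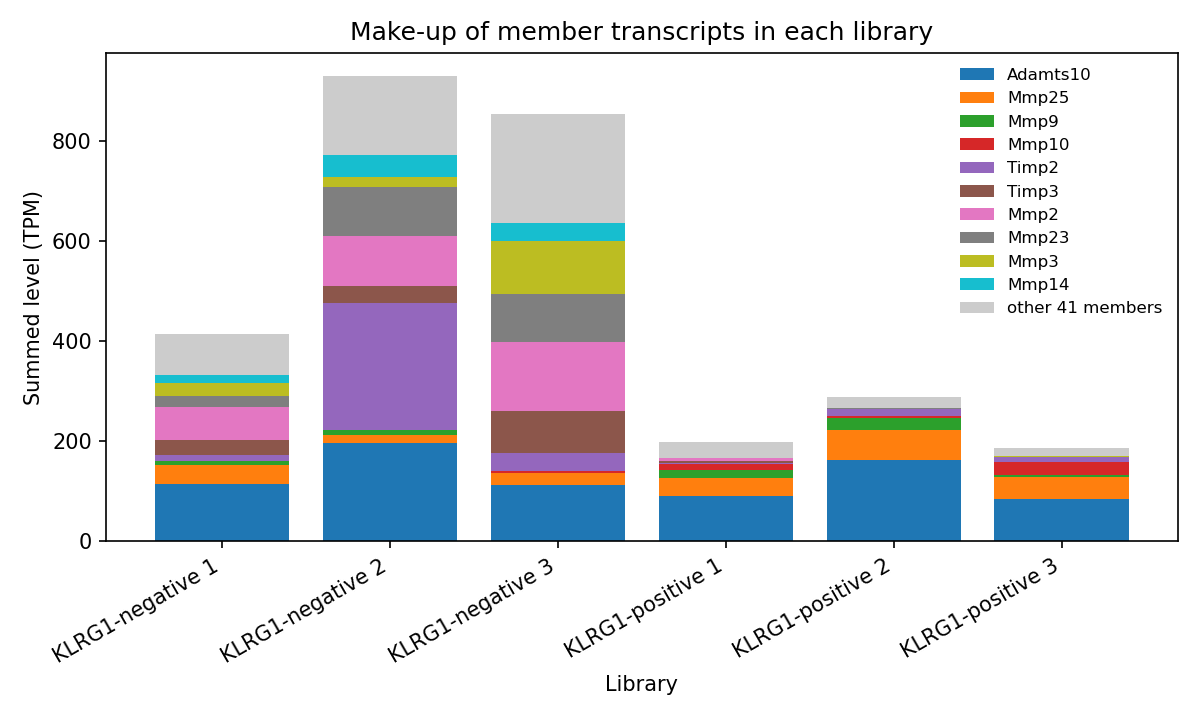
Summed level of all 51 members in each library in TPM, stacked by gene, with 10 genes shown and the other 41 in grey. The bars reach 198, 289 and 188 TPM in KLRG1-positive and 414, 929 and 853 TPM in KLRG1-negative libraries, and Adamts10 with Mmp25 fills most of each KLRG1-positive bar.

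Genes that activate, bind or resemble these proteases were tested in the same way. Of 52 such genes 39 were tested, of which the KLRG1-positive sort had 0 higher and 7 lower (edgeR; 2 and 22 at an unadjusted p under 0.05). DESeq2 called 0 higher and 21 lower, and with the replicate block 3 were lower. Over all genes, 1.21% were lower by edgeR, 11.5% at an unadjusted p, 9.15% by DESeq2 and 0.349% with the block. The 7 were the endocytic receptor Lrp1 (adjusted p = 0.0470), the matricellular Thbs2 (0.0333), the lysosomal protease Ctsl (0.0454), the serine protease Htra3 (0.0256), the procollagen C-proteinase enhancer Pcolce (0.0430), and the matrix proteins Fbn1 (0.0102) and Nid1 (0.0196). Fbn1 encodes fibrillin 1, the microfibril protein bound by ADAMTS10, and stood at 58.4, 69.2 and 108 CPM in KLRG1-negative and at 0.225, 0.374 and 0.133 CPM in KLRG1-positive libraries. Unlike Adamts10, it was nearly absent from the KLRG1-positive libraries. The median log2 fold change was -1.85 over the 39 partner genes and -6.80 over the 8 tested genes for other secreted matrix proteases and their enhancers, where all tested genes had -0.05.

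The membrane-bound ADAM proteases had a median log2 fold change of 0.26 over 8 tested genes, and none passed. Adam8, a leukocyte surface sheddase, stood at 593, 886 and 567 CPM in KLRG1-positive and at 121, 406 and 237 CPM in KLRG1-negative libraries, with no overlap (1.42 ± 0.46, adjusted p = 0.199). Furin, the convertase that activates Mmp11, Mmp14, Mmp25 and ADAMTS precursors, stood at 290.4, 296 and 343 against 34.1, 196 and 155 CPM, also without overlap (1.27 ± 0.59, adjusted p = 0.377). The lysosomal protease Ctsb was alike in level, at 681 ± 17.2 and 744 ± 90.7 CPM (log2 fold change -0.13 ± 0.16, adjusted p = 0.807). Cd44, the hyaluronan receptor that docks Mmp9 at the surface, stood at 643, 469 and 358 CPM in KLRG1-positive and at 278, 334 and 399.7 CPM in KLRG1-negative libraries, with overlap (0.54 ± 0.27, adjusted p = 0.416). Cst3, which encodes the cathepsin inhibitor cystatin C, stood at 275, 325 and 348 CPM in KLRG1-positive and at 155, 260.3 and 288 CPM in KLRG1-negative libraries, also with overlap (0.43 ± 0.27, adjusted p = 0.535). Adam8, Ctsb, Cd44 and Cst3 had the highest mean CPM of the partner genes in the KLRG1-positive libraries.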

How the data were processed

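Gene expression was measured by RNA sequencing of SMARTer cDNA with Nextera XT libraries, per the labels' protocols, which keep no strand. The authors deposited raw counts, with reads assigned to genes by featureCounts on Ensembl 90 gene models of GRCm38, without strand and without multi-mapping or ambiguous reads, per the file headers. The submitters' processing notes name bcl2fastq, STAR 2.4.1d and Subread 1.5.2. Multi-mapping reads were 26.3 to 32.3% of alignments, so genes with close copies are understated. Symbols came from GENCODE M21, which held 52403 of 52636 identifiers.

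Counts were tested with edgeR 4.0.16 in R 4.3.3 (quasi-likelihood F test, robust, TMM factors, filterByExpr by group, two-sided, Benjamini-Hochberg over 15197 genes, threshold 0.05), and an adjusted p without another name comes from it. The script was tested on simulated data. DESeq2 1.42.0, other scalings, no filter, the replicate block and left-out libraries were alternatives. TPM was computed from the deposited gene lengths. Counting intervals are exact (95%); they and floors cover counting error only. Same-numbered libraries deviated together (correlations 0.46, 0.44 and 0.21), so the numbers were read as pairing the libraries, a reading from the data and not from the labels. The main test leaves this pairing out, and only the fit with the replicate block takes it in. Under the block Mmp14, Mmp23 and Mmp3 were called lower, and Adamts2, Adamts5 and Adamts15 were not.

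Named members were those past the threshold, detected at 1 CPM in every KLRG1-positive library, or averaging 10 CPM in a group, and all Timp genes; of the partner genes, those past the threshold and the 4 with the highest mean CPM in KLRG1-positive libraries. Mmp12, Myo1f and Furin were added after their values were seen. Members and lists were chosen with earlier results of these data known.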

Additional observations from a re-analysis of the deposited data

How the results depend on the processing

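No member was higher under any alternative run. Members lower, 5 in the main test, were 22 by DESeq2, 3 with the replicate block, 0 without both libraries numbered 2 or without both numbered 3, and 0 to 5 with 1 library left out. Over all genes, the 19 higher and 184 lower became 355 and 1624 by DESeq2, 37 and 282 without the low-count filter, and 0 and 53 with the replicate block. Without both libraries numbered 1 there were 3 higher and 168 lower, and without both numbered 2 or 3 there were 0 and 0. With 1 library left out the ranges were 0 to 5 higher and 0 to 159 lower. Partner genes lower, 7 in the main test, were 21 by DESeq2, 3 with the replicate block, 3 without both libraries numbered 1, 0 without both numbered 2 or 3, and 0 to 5 with 1 library left out. At an unadjusted p under 0.05, edgeR had 10 to 23 members and 1159 to 2113 genes lower over its alternatives. Members detected in KLRG1-positive cells, 9 in all, were 8 to 12 over the alternatives. Reversed log2 fold changes were those of Adamts6 (0.70 without both libraries numbered 3; -0.69 to 0.40 with 1 library left out) and Mmp8 (0.77 with the block, 0.91 without both numbered 2; -0.83 to 0.85 with 1 library left out). Of the other values for named members under an alternative, 248 kept direction and side of the threshold, 39 no longer passed and 16 newly passed. Fits with fewer libraries have fewer degrees of freedom; no other cause was tested.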
